A study of Mus musculus with 7 samples.

Results

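The levels of 34 genes of microglia, the resident macrophages of the brain, were examined in RNA from a synaptic fraction of mouse hippocampus. The set holds the 3 chains of the complement protein C1q and markers of microglia, and its members were matched by symbol to gene identifiers with the version removed. All 34 were found among the 22248 genes of the deposited gene table. They were divided into 14 phagosome and complement genes (5 complement, 9 phagosome) and 20 others (11 surface receptors and secreted proteins, 9 pan-leukocyte and intracellular proteins).

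The RNA came from hippocampal synaptoneurosomes, nerve endings with attached postsynaptic parts that are recovered by fractionating tissue, of wild-type female C57Bl/6J mice. Mice received AM6545 sub-chronically in 4 libraries, labelled B, D, E and F, and Vehicle in 3 libraries, labelled B, D and E. AM6545 blocks the cannabinoid receptor CB1 and enters the brain poorly. The dose, the length of treatment, the age and the number of mice behind each library are not given in the sources used here, so the p-values measure the spread between these libraries, which may be partly technical.

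Microglia prune synapses and clear debris. C1q, assembled from the products of C1qa, C1qb and C1qc, binds its targets and starts the classical complement cascade, and material tagged by C3 fragments is taken up through complement receptor CR3, whose alpha chain is Itgam. TYROBP (DAP12) and the Fc receptor gamma chain FCER1G are small adaptors that signal for receptors such as TREM2 and the Fc gamma receptors, and engulfed material is then broken down in lysosomes by proteases such as cathepsin S and legumain.

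Many microglia genes carry a purine-rich GAGGAA element, the core bound by PU.1, the transcription factor encoded by the member Spi1. The 250 bases before the RefSeq start of 4 members are shown, 5′ to 3′ on the gene's strand in GRCm38.p6, because C1qb and Trem2 stood among the members with lower levels after AM6545 and Itgam and P2ry12 among those without. Capitals mark GAGGAA or its reverse complement TTCCTC.
C1qb (chr4:136886201-136886450, minus strand): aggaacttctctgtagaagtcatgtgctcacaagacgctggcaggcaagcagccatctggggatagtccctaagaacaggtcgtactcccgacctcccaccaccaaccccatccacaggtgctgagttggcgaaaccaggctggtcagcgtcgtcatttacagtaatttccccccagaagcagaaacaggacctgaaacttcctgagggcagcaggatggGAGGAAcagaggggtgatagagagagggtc
Trem2 (chr17:48346151-48346400, plus strand): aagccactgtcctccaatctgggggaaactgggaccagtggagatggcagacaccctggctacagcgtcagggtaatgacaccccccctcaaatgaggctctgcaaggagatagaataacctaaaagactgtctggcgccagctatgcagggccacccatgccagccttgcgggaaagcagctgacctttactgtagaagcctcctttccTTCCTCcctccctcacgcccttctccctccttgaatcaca
Itgam (chr7:128062390-128062639, plus strand): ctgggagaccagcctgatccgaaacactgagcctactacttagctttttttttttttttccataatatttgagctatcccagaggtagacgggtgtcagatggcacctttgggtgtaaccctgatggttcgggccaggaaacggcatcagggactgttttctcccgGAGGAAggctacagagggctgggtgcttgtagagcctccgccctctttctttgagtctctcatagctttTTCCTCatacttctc
P2ry12 (chr3:59262986-59263235, minus strand): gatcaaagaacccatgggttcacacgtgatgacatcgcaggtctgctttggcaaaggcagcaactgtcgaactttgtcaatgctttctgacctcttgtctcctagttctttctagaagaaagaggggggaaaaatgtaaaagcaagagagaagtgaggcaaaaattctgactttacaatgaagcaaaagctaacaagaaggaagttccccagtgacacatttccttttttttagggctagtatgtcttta
The element nearest the start lay 24 bases before it in C1qb, 34 in Trem2 and 9 in Itgam, and P2ry12 had none in this window. A promoter sequence was matched for 27 of the 34 members, and 15 of these 27 genes had the element on either strand. It was present in 51.6% of their 31 promoters against 23.3% of 32851 promoters of the same length. Among phagosome and complement genes 8 of 12 had it, and among the others 7 of 15. The element was present both before genes with lower levels (C1qb, Trem2) and before Itgam, whose level was not lower. It was absent in this window before P2ry12, and also before Fcer1g, Ltc4s and Ly86, whose levels were lower. A match is a description of these letters and not evidence of binding.

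The gene counts summed to between 19174649 and 25894733 per library, and the members made up 0.166% to 0.217% of them. All 34 passed the low-count filter, with 45.0 to 6379 counts per library. Vehicle replicate B stood apart, with 9.83% of its counts from mitochondrially encoded genes against 5.07% to 6.66% in the other 6 libraries. It was the highest of the 7 libraries for 18 of the 34 members, and Vehicle replicate E was the highest for 10. Vehicle replicate D was the lowest for 10 members and AM6545 replicate B for another 10. Neuronal markers were abundant in all libraries, at a summed 9314 to 10027 CPM (counts per 1000000, on library sizes scaled by edgeR's TMM method). Glial markers were abundant too, with sums of 17149 to 23438 CPM for oligodendrocyte markers and 4235 to 5694 CPM for astrocyte markers.

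Of the 34 members, 24 had a lower fitted level after AM6545 and 10 a higher one, with a median log2 fold change (AM6545 over Vehicle) of -0.19. Over all 14654 genes tested 48.6% were lower and the median was 0.01. The members were chosen with earlier results of these data known, so their counts are not those of an independently chosen set. No member passed edgeR's quasi-likelihood test at an adjusted p under 0.05, a threshold that 0.00682% of all genes passed, and the members' adjusted p-values ran from 0.199 to 0.982. At an unadjusted p under 0.05 there were 13 members, all lower, where 14.6% of all genes were called and 8.7% were called lower. For 8 members the AM6545 and Vehicle libraries did not overlap, all lower, against 13.8% of all genes and 7.19% in that direction. With other tools the adjusted count was not 0. DESeq2 with its default settings called 6 members (C1qa, C1qb, C1qc, Fcer1g, Ltc4s and Tyrobp, with 2.05% of all genes called), and limma-voom with quality weights called Ltc4s alone (0.805%). Limma-voom also placed 4 members, Gpr34, Itgam, P2ry12 and P2ry13, higher at an unadjusted p under 0.05 (11.9% of all genes). Second versions of both tools, added after these calls were seen, called 5 members (the first 6 without Ltc4s, 2.44% of all genes) and 2 members (Ltc4s and Tyrobp, 2.69%). Leaving out Vehicle replicate E, edgeR called 4 members (C1qc, Fcer1g, Ltc4s and Tyrobp), in a fit that called 6.38% of all genes. Leaving out Vehicle replicate B, 8 members were at an unadjusted p under 0.05 (6.46% of all genes) and the members' median was -0.11. Without that library Cd68, Ly86, Selplg, Spi1 and Tmem119 were no longer at that p. Leaving out Vehicle replicate D, 17 members were at that p (13.2% of all genes). The replicate letter as a block gave 9 (8.18%). In a bulk preparation, less microglial material in a fraction and less RNA of a gene per cell cannot be told apart.

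**Figure D1:**
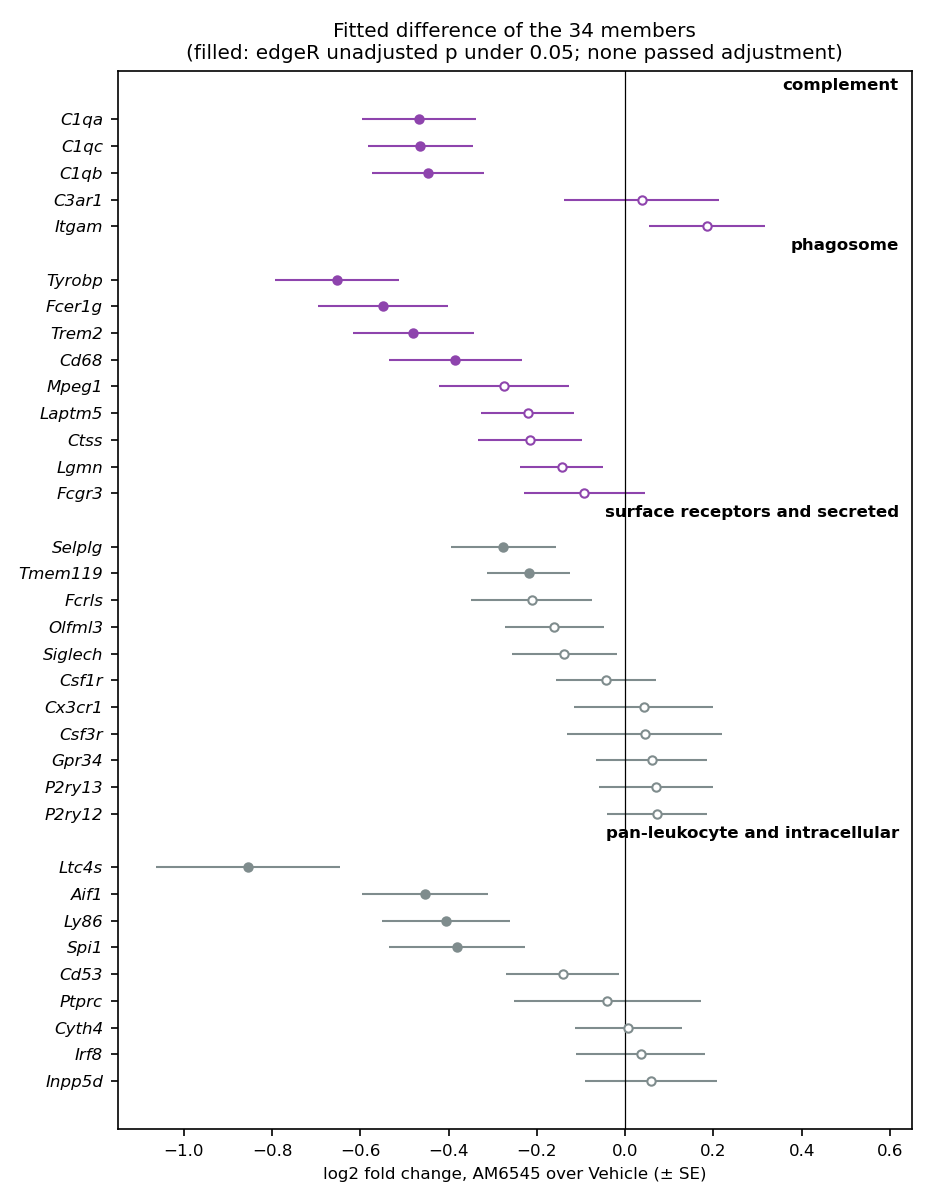
Fitted log2 fold change of each of the 34 members, AM6545 over Vehicle (x axis), with bars of 1 standard error, by group; filled points have an edgeR unadjusted p under 0.05. The 13 filled points all lie below 0, in all 4 groups of genes, and the receptors P2ry12, P2ry13, Gpr34 and Cx3cr1 lie near 0.

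The 3 C1q chains were lower after AM6545 to nearly the same degree. Their genes lie side by side on chromosome 4 of GRCm38 (C1qb from 136880129 to 136886187, C1qc from 136889804 to 136893065, C1qa from 136895917 to 136898803, all on the minus strand), and no exon of another gene overlaps theirs. C1qb read 151, 154, 143 and 155 CPM in AM6545 replicates B, D, E and F, and 241, 160 and 216 CPM in Vehicle replicates B, D and E. Every AM6545 library was below every Vehicle library, but Vehicle replicate D exceeded the highest AM6545 library only slightly. The means were 151 ± 5.61 (SD, n = 4) and 205 ± 41.5 CPM (SD, n = 3), a log2 fold change of -0.45 (SE 0.13, edgeR adjusted p = 0.212).

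C1qc read 124, 123, 123 and 130 CPM after AM6545, against 205, 140 and 173 CPM after Vehicle. The AM6545 libraries lay close together below all 3 Vehicle libraries. Its log2 fold change was -0.46 (SE 0.12, edgeR adjusted p = 0.199). C1qa read 79.3, 76.5, 73.3 and 82.1 CPM against 130, 84.7 and 108 CPM, again without overlap and again with Vehicle replicate D nearest to the AM6545 libraries. Its log2 fold change was -0.47 (SE 0.13, edgeR adjusted p = 0.205).

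Without Vehicle replicate B the log2 fold changes of C1qa, C1qb and C1qc were -0.30, -0.31 and -0.32. The chains kept their proportions. Per kilobase of transcript, C1qa stood at 0.521 to 0.565 of C1qb and C1qc at 0.724 to 0.793 of C1qb over all 7 libraries. The C1qa to C1qb ratio averaged 0.540 ± 0.0146 (SD, n = 4) after AM6545 and 0.548 ± 0.0219 (SD, n = 3) after Vehicle, a difference smaller than either SD. By the same measure C1qb was the highest of the 34 members in Vehicle, at 189 ± 38.1 CPM per kilobase, and C1qc (143 ± 27.0) and C1qa (103 ± 21.8) came after Ctss (161 ± 26.2). In every library C1qb was above C1qc and C1qc above C1qa, while the spread of Ctss overlapped those of C1qb and C1qc.

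The receptor genes of the complement group were not lower before correction for GC content and length. Itgam, the alpha chain of CR3, read 28.3, 33.6, 33.3 and 31.3 CPM after AM6545 and 26.8, 23.1 and 33.8 CPM after Vehicle. The groups overlapped through Vehicle replicate E, and the log2 fold change was 0.19 (SE 0.13, adjusted p = 0.520 in edgeR). In GENCODE M21, Itgam shares 68.3% of its 31-base words with Gm49368, an overlapping model on the same strand, so its counts are uncertain, although Gm49368 itself was assigned only 0.0585 CPM after AM6545 and 0.0684 CPM after Vehicle. C3ar1, the receptor for the C3a fragment, was scarce, at 3.42, 3.53, 3.25 and 2.65 CPM against 2.94, 3.39 and 3.03 CPM. Its groups overlapped fully, with a log2 fold change of 0.04 (SE 0.18), or -0.15 once corrected for GC content and length. The sign for C3ar1 changed in 6 of the 20 alternative fits.

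Summed over the 5 complement members, the level was 387, 391, 375 and 401 CPM after AM6545 and 606, 411 and 533 CPM after Vehicle. The groups did not overlap, and the mean after AM6545 was 75.2% of that after Vehicle, with most of the sum coming from the C1q chains.

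**Figure D2:**
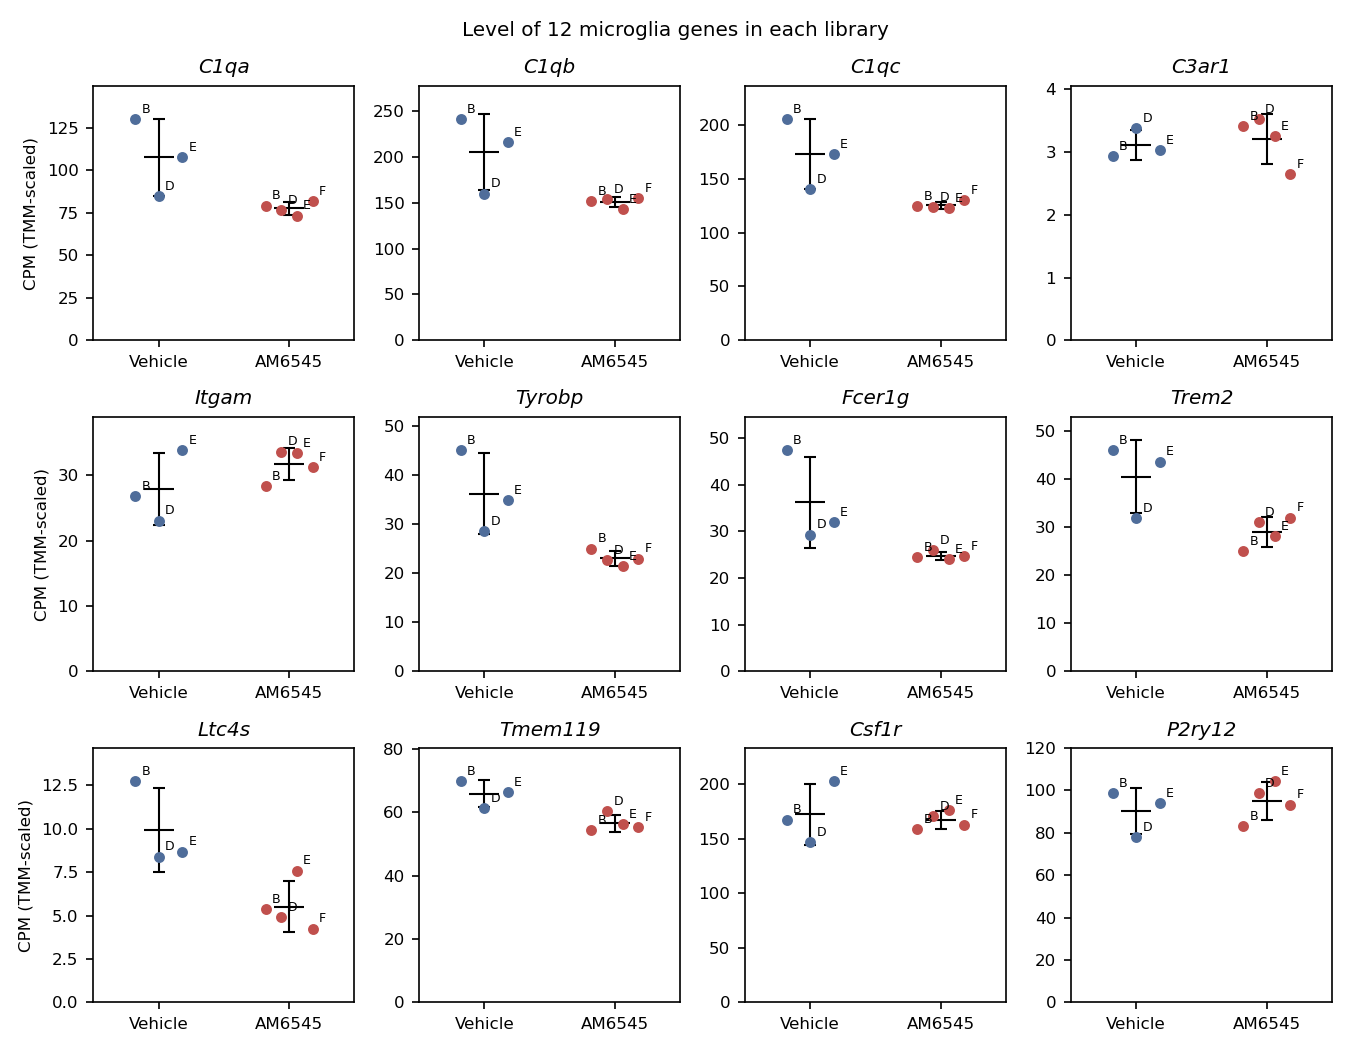
Level of 12 members in each library (y axis, TMM-scaled CPM from 0), Vehicle in blue and AM6545 in red, letters giving the replicate, with the mean (long bar) and SD. The AM6545 points of C1qa, C1qb, C1qc, Tyrobp, Fcer1g, Ltc4s and Tmem119 all lie below the 3 Vehicle points, of which replicate D is the lowest, and those of C3ar1, Itgam, Csf1r and P2ry12 overlap them.

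The 9 phagosome genes all had lower fitted levels after AM6545, with a median log2 fold change of -0.27, and 4 of them had an unadjusted p under 0.05. Of all genes tested, 48.6% were lower and 8.7% were lower at that p. Before any correction, and with all libraries, the largest differences were those of the signalling adaptors. Tyrobp read 25.0, 22.6, 21.5 and 23.0 CPM after AM6545 and 45.1, 28.7 and 34.9 CPM after Vehicle. No library of one group reached into the other. The means were 23.1 ± 1.47 (SD, n = 4) and 36.2 ± 8.30 CPM (SD, n = 3), with a log2 fold change of -0.65 (SE 0.14, edgeR adjusted p = 0.199), the smallest adjusted p among the members, which Ltc4s, C1qc and Fcer1g shared.

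Fcer1g read 24.4, 25.9, 24.0 and 24.8 CPM after AM6545 and 47.4, 29.3 and 31.9 CPM after Vehicle. The groups did not overlap, and Vehicle replicate B was far above the other 2 Vehicle libraries. Its log2 fold change was -0.55 (SE 0.15, edgeR adjusted p = 0.199) with all libraries and -0.30 without that library. Trem2, the lipid-sensing receptor that signals through TYROBP, read 24.9, 31, 28.1 and 31.9 CPM against 45.9, 31.9 and 43.5 CPM. AM6545 replicate F and Vehicle replicate D met near 31.9 CPM, so the groups overlapped there, with a log2 fold change of -0.48 (SE 0.14, edgeR adjusted p = 0.212).

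Cd68, a lysosomal membrane glycoprotein of macrophages, read 21.6, 22, 22.9 and 22.3 CPM after AM6545 and 36.7, 21.3 and 29.0 CPM after Vehicle. Vehicle replicate D was below all 4 AM6545 libraries, and the log2 fold change was -0.38 (SE 0.15, edgeR adjusted p = 0.287), or -0.17 without Vehicle replicate B. The remaining phagosome genes had fitted log2 fold changes between -0.27 and -0.09 with overlapping groups and unadjusted p-values from 0.0590 to 0.510. They were the pore-forming Mpeg1 (-0.27), lysosomal Laptm5 (-0.22), the proteases Ctss (-0.22) and Lgmn (-0.14), and Fcgr3 (-0.09). Fcgr3, a low-affinity receptor for IgG, shares 13.4% of its 31-base words with its paralog Fcgr2b, so reads could be divided between them. The summed phagosome level was 562 to 607 CPM in the AM6545 libraries and 612, 721.6 and 779 CPM in Vehicle replicates D, E and B, with a ratio of the means of 84.2%.

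Set beside each other, the median log2 fold change of the 14 phagosome and complement genes was -0.33, with 12 lower, 7 at an unadjusted p under 0.05 and 5 without overlap. The 20 other members had a median of -0.09, with 12 lower, 6 at an unadjusted p under 0.05 and 3 without overlap. Of all genes tested, 48.6% were lower, 8.7% were lower at that p and 7.19% were lower without overlap. Without Vehicle replicate B the medians were -0.19 and -0.04. The difference between the 2 groups of genes was not tested. The groups also differed in transcript length, with 9 of the 14 but 3 of the 20 shorter than 1400 bases. Within a range of length the medians of phagosome and complement genes and of the others were close. They were -0.46 and -0.45 below 1400 bases, -0.18 and -0.18 from 1400 to 2500 bases, and 0.04 and 0.03 above 2500 bases. In the sums, the 20 other members read 732 to 801 CPM after AM6545 and 705, 880.0 and 911 CPM in Vehicle replicates D, B and E. The groups overlapped, with a ratio of the means of 92.6%.

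**Figure D3:**
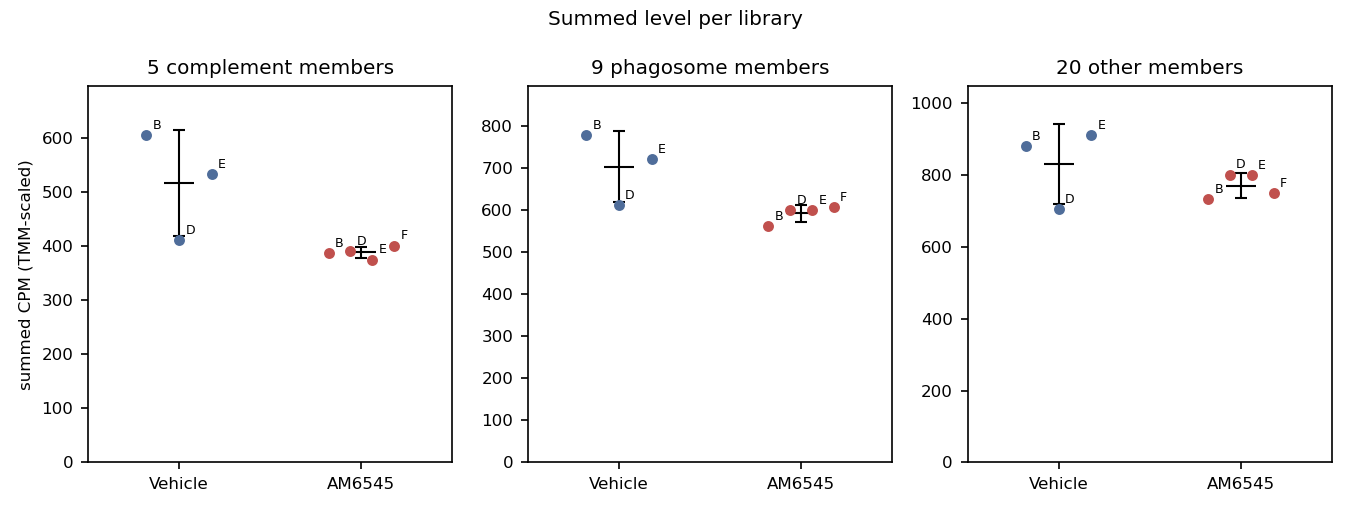
Summed CPM of the 5 complement, 9 phagosome and 20 other members in each library (y axis from 0), Vehicle in blue and AM6545 in red, letters giving the replicate, with mean and SD. The AM6545 sums lie below all Vehicle sums for the complement and phagosome genes, by little for Vehicle replicate D, and overlap the Vehicle sums (705 to 911 CPM) for the others.

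Among the 11 surface receptors and secreted proteins, 6 were lower and 5 higher, with a median log2 fold change of -0.04. With each library corrected for its trends with GC content and length, 10 were lower and the median was -0.11, with P2ry12 at -0.10, P2ry13 at -0.09 and Gpr34 at -0.11. Tmem119, a membrane protein used to tell microglia from other macrophages, read 54.2, 60.3, 56.2 and 55.4 CPM after AM6545 and 69.8, 61.3 and 66.4 CPM after Vehicle. The groups did not overlap, with a log2 fold change of -0.22 (SE 0.09, edgeR adjusted p = 0.316). Selplg, the P-selectin ligand, read 69.7, 75.1, 69.4 and 71.4 CPM against 104, 72.1 and 83.6 CPM. AM6545 replicate D exceeded Vehicle replicate D, and the log2 fold change was -0.28 (SE 0.12, edgeR adjusted p = 0.317), or -0.12 without Vehicle replicate B.

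The receptor genes P2ry12, Csf1r and Cx3cr1 showed little difference, whereas the microglia markers Tmem119 (-0.22) and Aif1 (-0.45) were lower. P2ry12, the purinergic receptor that directs process movement toward ATP and ADP, averaged 94.9 ± 8.99 CPM (SD, n = 4) after AM6545 and 90.3 ± 10.9 CPM (SD, n = 3) after Vehicle. Csf1r, the survival receptor for CSF1 and IL-34, averaged 167 ± 7.96 and 172 ± 28.1 CPM. Cx3cr1, the receptor for neuronal fractalkine, averaged 59.9 ± 8.74 and 58.2 ± 13.9 CPM. Their log2 fold changes were 0.07, -0.04 and 0.04, each smaller than its standard error (0.11, 0.11 and 0.16). Once corrected for GC content and length, they were -0.10, -0.07 and -0.05. P2ry13 (0.07), Gpr34 (0.06) and Csf3r (0.04) were likewise near 0, and Fcrls (-0.21), Olfml3 (-0.16) and Siglech (-0.14) were lower with overlapping groups and unadjusted p-values of 0.149 to 0.267. Csf1r shares exonic positions with Hmgxb3 and P2ry12 with Med12l, both on the opposite strand, and the strand setting of the counting is not given in the sources used here.

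Ratios within a library, formed after the values were known, describe these unequal differences. C1qb per kilobase stood at 2.96 to 3.50 times Csf1r in the AM6545 libraries and at 3.91 to 5.28 times in the Vehicle libraries. Tyrobp stood at 5.08 to 6.95 times Itgam after AM6545 and at 8.12 to 13.2 times after Vehicle. Neither ratio overlapped between groups, and in both the Vehicle libraries spread over the wider range. Since these genes were already known to differ unequally, the separation is not a separate result. Each ratio also sets a shorter transcript (C1qb 1088 bases, Tyrobp 593) over a longer one (Csf1r 3988, Itgam 4664). The ratios of Tyrobp to Trem2, Fcer1g to Tyrobp and P2ry13 to P2ry12 overlapped between groups.

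Of the 9 pan-leukocyte and intracellular genes, 6 were lower, with a median log2 fold change of -0.14. The median was -0.03 without Vehicle replicate B and -0.23 when corrected for GC content and length. Ltc4s, which makes leukotriene C4, read 5.35, 4.90, 7.58 and 4.25 CPM after AM6545 and 12.7, 8.40 and 8.68 CPM after Vehicle. The groups did not overlap, and its log2 fold change of -0.86 (SE 0.21, edgeR adjusted p = 0.199) was the largest of the 34 members, at a low level. Ly86, the partner of the toll-like receptor relative RP105, read 16.4, 18.4, 20.8 and 20.5 CPM against 31.4, 20.9 and 23.4 CPM. Its groups did not overlap, but AM6545 replicate E and Vehicle replicate D nearly met, with a log2 fold change of -0.41 (SE 0.15, edgeR adjusted p = 0.261), or -0.21 without Vehicle replicate B.

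Aif1, which encodes the actin-binding protein IBA1, read 15.4, 16.0, 16.3 and 17.0 CPM after AM6545 and 25.6, 16.5 and 24.4 CPM after Vehicle. AM6545 replicate F exceeded Vehicle replicate D, and the log2 fold change was -0.45 (SE 0.14, edgeR adjusted p = 0.232). Spi1, the gene of PU.1, read 13.5, 13.2, 9.85 and 11.5 CPM against 18.2, 12.4 and 16.3 CPM. Its groups overlapped, with a log2 fold change of -0.38 (SE 0.15, edgeR adjusted p = 0.3). The tetraspanin Cd53 (-0.14), the phosphatase Ptprc or CD45 (-0.04), Cyth4 (0.01), the transcription factor Irf8 (0.03) and the inositol phosphatase Inpp5d (0.06) differed by about their standard errors or less.

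The fitted differences of the members followed transcript length. Lengths are those of GENCODE M21 weighted over transcripts, and the limits of 1400 and 2500 bases were chosen after the values were seen. All 12 members shorter than 1400 bases were lower, with a median log2 fold change of -0.46. These were 9 phagosome and complement genes (median -0.46) and the 3 others Aif1, Ltc4s and Ly86 (median -0.45). Of the 1987 tested genes of any kind in this length range, 86.4% were lower, with a median of -0.22. Of the 10 members of 1400 to 2500 bases 8 were lower (median -0.18), where 53.6% of all genes were lower (median -0.02). Of the 12 members longer than 2500 bases 4 were lower (median 0.04), where 37.8% of all genes were lower (median 0.07). Itgam, C3ar1 and Mpeg1 were the only phagosome and complement genes in that last range. Across the 34 members, Spearman's rho between the fitted difference and length was 0.77, and that with GC content was -0.54. Over 14633 genes the values were 0.25 and -0.42. These correlations run across genes that share libraries and are descriptions.

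When each library was corrected for its trends with GC content and length, in a fit where 47.6% of all genes were lower, 29 of the 34 members were lower, with a median of -0.17 for all, -0.18 for the phagosome and complement genes and -0.12 for the others. The numbers at an unadjusted p under 0.05 went from 13 to 5 (C1qc, Cd53, Fcrls, Ly86 and Mpeg1), where 6.74% of all genes were called and 4.49% were called lower. With it the log2 fold change of Tyrobp was -0.19, that of C1qb -0.17 and that of C1qc -0.22. Those of C1qa, Fcer1g, Trem2, Aif1 and Ltc4s were -0.14, -0.17, -0.24, -0.16 and -0.30, and Mpeg1 at -0.44 was the lowest of the members. The medians of the short, middle and long members were then -0.20, -0.16 and -0.06. All 12 short members were still lower, by less than before. Whether the trend with length is technical was not tested.

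**Figure D4:**
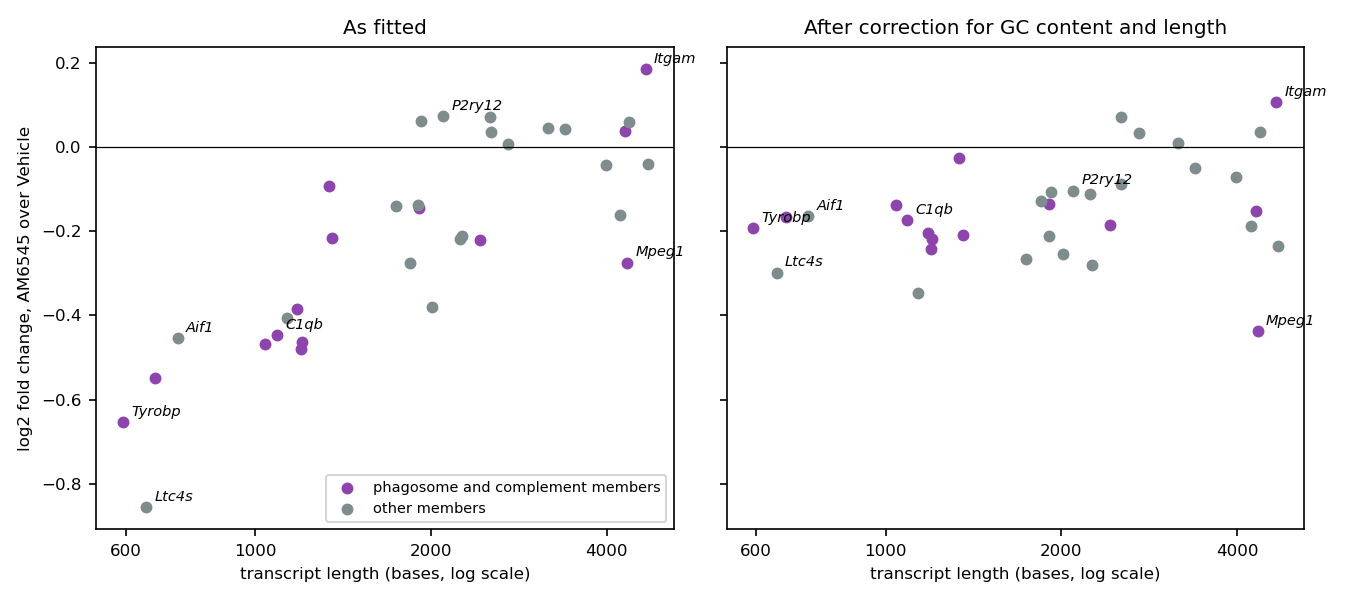
Fitted log2 fold change, AM6545 over Vehicle (y axis), of the 34 members against transcript length in bases (x axis, log scale), before (left) and after (right) correction of each library for GC content and length; purple marks phagosome and complement members and grey the others. On the left all 12 members shorter than 1400 bases lie below 0; on the right the points gather between about -0.3 and 0.1, apart from Mpeg1 (-0.44) and Ly86 (-0.35).

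In the transcript table the members had 152 entries, of which 68 were tested and 42 were lower. At an unadjusted p under 0.05 there were 18 (8.39% of all tested transcripts), 17 of them lower. None had an adjusted p under 0.05 in edgeR (0.0177% of all), the smallest being 0.559, and DESeq2 called 3 (Tyrobp-202, Csf1r-202 and P2ry12-201, with 1.05% of all called, or 1.27% after the edgeR filter). The C1q chains were carried by 1 transcript each. C1qa-201, C1qb-201 and C1qc-201 had log2 fold changes of -0.46, -0.44 and -0.46, as the genes did.

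For Tyrobp the main transcript, Tyrobp-202, read 24.1, 21.9, 20.6 and 22.1 CPM after AM6545 and 27.9, 27.9 and 32.2 CPM after Vehicle. The groups did not overlap, and its log2 fold change of -0.40 (SE 0.10, edgeR adjusted p = 0.559) was smaller than that of the gene. A second transcript, Tyrobp-201, was assigned 15.4 CPM in Vehicle replicate B and is listed at 0 in the other 6 libraries, so that library adds to the difference of the gene through a transcript no other library shows. Trem2-201 read 20.7, 25.0, 24.6 and 25.6 CPM against 38.8, 27.5 and 37.0 CPM, without the overlap seen for the gene. Its log2 fold change was -0.52 (SE 0.14).

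For Csf1r and Cx3cr1 a minor transcript was lower while the log2 fold change of the gene was near 0 (-0.04 and 0.04). Csf1r-202 read 18.8, 13.7, 15.0 and 20.9 CPM after AM6545 and 44.6, 29.4 and 25.2 CPM after Vehicle, and its share of the gene was 10.3% ± 2.43 (SD, n = 4) and 19.7% ± 6.99 (SD, n = 3). Cx3cr1-201 read 1.85, 4.66, 6.84 and 5.51 CPM against 17.7, 11.5 and 9.44 CPM, with shares of 7.92% ± 3.70 and 23.6% ± 11.3. Aif1-205 read 3.67, 4.32, 3.76 and 3.20 CPM against 9.50, 4.61 and 7.22 CPM. In all 3 the groups did not overlap, and the adjusted p was 0.559 in edgeR. These transcripts were named for an unadjusted p under 0.05, so the lack of overlap is not a separate result. P2ry12-201, named because it was the only member transcript that was higher at an unadjusted p under 0.05, read 2.78, 1.86, 4.08 and 1.70 CPM after AM6545 and is listed at 0, 0.436 and 0.402 CPM after Vehicle. How reads are divided among transcripts of a gene is an estimate, and these shares carry that uncertainty.

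Further lists of genes that work with the members were also chosen with earlier results of these data known. Their counts at an unadjusted p under 0.05 are to be read against the 14.6% of all genes at that p, or 8.7% lower at that p. The counts of lower genes are to be read against the 48.6% of all genes that were lower. Of 27 other complement genes 20 were tested, 15 were lower and 1, Clu, had an unadjusted p under 0.05. Clu, clusterin, averaged 1913 ± 181 CPM (SD, n = 4) after AM6545 and 2330 ± 133 CPM (SD, n = 3) after Vehicle, without overlap (log2 fold change -0.28, adjusted p = 0.285 in edgeR). C3 itself did not pass the filter, and Cfd is listed at 0.

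Of 33 other phagocytosis and lysosome genes, 27 were lower and 4 had an unadjusted p under 0.05, all lower. The leading ones were Cyba, a subunit of the phagocyte NADPH oxidase (-0.53, adjusted p = 0.212 in edgeR, or -0.08 once corrected for length and GC content), and Fcgr1, the high-affinity IgG receptor (-0.47, adjusted p = 0.284 in edgeR). Of 11 tested ligands and partners of member receptors 8 were lower, or 5 without Vehicle replicate B. Apoe, a lipid carrier and TREM2 ligand made largely by astrocytes, averaged 3846 ± 331 CPM (SD, n = 4) against 5059 ± 814 CPM (SD, n = 3), with a log2 fold change of -0.40, or -0.07 once corrected for length and GC content. The CSF1R ligand Il34 had a log2 fold change of -0.26 (adjusted p = 0.412 in edgeR), which was -0.03 without Vehicle replicate B and -0.11 when corrected. Of 14 tested genes of activated microglia 8 were lower, or 7 without Vehicle replicate B, with Apoe and Cd63 (-0.37, or -0.22 without that library and -0.12 when corrected) at an unadjusted p under 0.05. Of 20 further microglia genes 16 were lower, with a median of -0.08, and none had an unadjusted p under 0.05. The smallest p-values in that list were those of Abi3 (-0.27) and Rgs10 (-0.24). Rgs10 was at -0.04 without Vehicle replicate B and at 0.01 when corrected.

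Markers of other immune cells that could carry the same genes were scarce. None of 11 blood leukocyte markers passed the filter, their summed level was 0.606 to 1.37 CPM, and Ly6g is listed at 0 in all libraries. The 10 markers of border macrophages summed to 12.3 to 18.7 CPM after AM6545 and 14.5 to 21.6 CPM after Vehicle. Of 9 tested 7 were lower, with Stab1 (-0.47) and Cd209f (-0.79) at an unadjusted p under 0.05, and their part in the members' result was not tested. For this and the marker lists below, 48.6% of all genes tested were lower and 8.7% were lower at that p. Choroid plexus markers varied widely between libraries, from 436 to 2065 CPM after AM6545 and from 1631 to 2888 CPM after Vehicle, and all 8 were lower without an unadjusted p under 0.05. Astrocyte markers (5 of 10 lower, with Slc1a2 at -0.45, or -0.27 without Vehicle replicate B), oligodendrocyte markers (7 of 10 lower, with Cldn11 at -0.77) and neuronal markers (6 of 10 lower, with Thy1 at -0.74, or -0.33 without that library) were mixed in direction, and 8 of 10 endothelial and mural markers were higher. The part of these cells in the members' differences was not tested.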

How the data were processed

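RNA from 7 hippocampal synaptoneurosome libraries was purified with an RNeasy kit and prepared with the SMARTer Ultra Low Input kit, per the labels' protocols. The authors deposited estimated counts per gene and per transcript, and the submitters' processing notes name Salmon 1.5.2 and mm10. How many mice gave each library, the annotation release and the strand setting are not given in the sources used here. Gene symbols, lengths, GC content and positions were taken from GENCODE M21 (GRCm38), and promoters from RefSeq (GRCm38.p6). All 34 member identifiers carry a higher version number than that release, so lengths and positions may differ from those used for counting.

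Estimated counts were rounded to whole numbers. AM6545 (n = 4) was compared with Vehicle (n = 3) with the quasi-likelihood test of edgeR 4.0.16 in R 4.3.3 (limma 3.58.1), after the filterByExpr filter and TMM scaling, without covariates and with robust fitting, over 14654 genes and over 33962 transcripts with Benjamini-Hochberg adjustment. Standard errors were derived from the F statistic. The median biological coefficient of variation was 12.4%, which limits what 7 libraries can resolve. Levels are CPM on TMM-scaled library sizes. Scripts were tested on simulated data.

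The members and gene lists were chosen with earlier results of these data known. Every member was accounted for. Values per library are given for the complement genes, Tyrobp, Fcer1g and Trem2, for other members with an unadjusted p under 0.05 or groups that did not overlap, and for up to 6 transcripts at that p. At most 2 genes of each further list, with the smallest p, were named. The length limits, the promoter element and the ratios between members were chosen after values had been seen. DESeq2 1.42.0 and limma-voom were first run with default settings. A second version of each (DESeq2 after the edgeR filter, voom with robust moderation) was added after the calls of the first had been seen, to match an earlier analysis of these data, and both versions are reported. Other alternatives were other scalings, filters, a replicate block, a correction for GC content and length (lowess, span 0.3), sums of transcripts over each gene, a fit without genes of the mitochondrial genome, and leaving out each library.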

Additional observations from a re-analysis of the deposited data

Results flagged for a closer look

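The summed level of the 9 phagosome genes in AM6545 replicate B, 562 CPM, stood apart from the other 3 AM6545 libraries (601 to 607 CPM), by a gap that was a large part of the range of that group. It lay on the far side of the Vehicle libraries (612 to 779 CPM). In all, 53 values were examined this way, and about 2.65 would be expected to stand out by chance.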

How the results depend on the processing

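With 7 libraries, 0 members passed an adjusted p under 0.05 in edgeR, and this held for both other scalings, both other filters, the replicate block, the GC content and length correction, sums of transcripts over each gene, a fit without genes of the mitochondrial genome, and a looser threshold of 0.1. DESeq2 with default settings called 6 members and DESeq2 after the edgeR filter 5 (Ltc4s then had no adjusted p). limma-voom called 1 member and its robust version 2 (Ltc4s and Tyrobp). These second versions were added after the first had been seen. They called 247 and 394 of all genes, against 231 and 118 in the first. Leaving out 1 library gave 0 to 4 calls, the 4 without Vehicle replicate E in a fit that called 6.38% of all genes. At an unadjusted p under 0.05 the count of 13 (14.6% of all genes) varied when 1 library was left out. It ranged from 8 without Vehicle replicate B (6.46% of all genes) to 17 without Vehicle replicate D (13.2%). It was 5 with the GC content and length correction (6.74% of all genes) and 0 when that correction was joined to the replicate block. In both limma-voom versions, which gave Vehicle replicate B the lowest weight (0.365), the medians were -0.0386 for all members, -0.12 for phagosome and complement members and 0.0307 for the others, the last with the other sign, and 4 members (Gpr34, Itgam, P2ry12 and P2ry13) were higher at an unadjusted p under 0.05. With the correction and the block the phagosome and complement median was -0.16. DESeq2 called 3 member transcripts in both versions. Of the 34 members, 18 were lower and 1 (Itgam) was higher in all 20 alternatives, and 15 changed sign in at least 1. Same-letter libraries did not deviate together. Correlations of their deviations over genes were -0.31, -0.14 and -0.24, against -0.17 to 0.33 for libraries of different letters. With so few pairs, these values cannot settle whether the letters mark paired libraries. The replicate block gave 9 members at an unadjusted p under 0.05 (8.18% of all genes), all lower. Genes as scarce as C3ar1 and Ptprc had standard errors of 0.18 and 0.21, so small differences in them were not detectable at this depth.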
